A study of Homo sapiens with 14 samples.

Results

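Genes of glycolysis and of the hypoxia response were examined in Jurkat cells, an established human line of T-cell acute lymphoblastic leukaemia. The set held 35 genes of the 61541 in the deposited count table, found by matching Ensembl identifiers to a list of gene symbols. Of these, 25 encode glucose and lactate carriers, glycolytic enzymes and enzymes next to the pathway (the glycolysis genes). The other 10 are genes of oxygen sensing (*HIF1A*, *EGLN1* and *EGLN3*) or genes that hypoxia is known to induce (the hypoxia genes). All 35 passed the low-count filter, which kept 18963 genes.

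The 14 libraries of polyadenylated RNA fell into 5 groups, and every group was Jurkat. Cells given the solvent DMSO (n = 3) were the controls of cells given APS-2-79, an inhibitor of the KSR kinases (KSRi, n = 3). Cells carrying *KSR2* guide 1 (n = 3) or *KSR2* guide 2 (n = 3) had as controls cells with a non-targeting guide (NT, n = 2). KSR2 is a scaffold of the RAF, MEK and ERK cascade. The labels name the genetic method in more than 1 way, since the sample titles give CRISPR knockout, the design text CRISPR interference and the library names of NT a hairpin control. Dose, hours of treatment, oxygen level, glucose in the medium and whether the guide lines were clones or pools are nowhere stated in those labels. Nothing says that replicates came from separate cultures, so the p-values measure the spread between these libraries, which may be technical.

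Library totals were 27099107 to 43027877 counts in DMSO, 21710466 to 45897075 in KSRi, 25794010 to 34535929 in NT, 33919545 to 38801454 with guide 1 and 29979565 to 42717502 with guide 2. By chi-square per degree of freedom over all genes, KSRi replicate 1 stood apart from the other KSRi libraries, with 33.2 and 45.0 against them. KSRi replicates 2 and 3 gave 15.8 and the pairs within other groups 5.46 to 24.8. The correlation of log2 levels did not separate KSRi replicate 1 in this way. That correlation was 0.9925 for KSRi replicates 1 and 2, 0.9882 for 1 and 3 and 0.9927 for 2 and 3. Mitochondrially encoded transcripts took 2.51%, 2.06% and 1.12% of counts in KSRi replicates 1 to 3. All 10 markers of the Jurkat line that were examined (*CD3E*, *LCK* and *TAL1* among them) were above 1 CPM on average (CPM are read counts scaled to the size of the library), and so was *CD79A* of the 4 B cell markers and *COL1A1* of the 3 fibroblast markers, while *MS4A1*, *DCN* and all myeloid, erythroid and epithelial markers were below it. The target *KSR2* averaged 29.5 CPM in NT and stood at 0.453 to 0.664 CPM with guide 1 and at 0.730 to 0.822 CPM with guide 2. Its values in DMSO were 34.8 to 39.3 CPM and in KSRi 33.5 to 35.6 CPM.

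Glycolysis splits glucose into pyruvate and yields ATP without oxygen. Lactate dehydrogenase then turns pyruvate into lactate, which leaves the cell through monocarboxylate carriers, and leukaemic T cells are known for high use of this route even in air. In the hypoxia response, prolyl hydroxylases of the EGLN family mark HIF-1 alpha for destruction while oxygen is present. When oxygen falls, HIF-1 alpha persists, pairs with ARNT and binds the core motifs ACGTG or GCGTG near its target genes, many of which are glycolytic. HIF-1 alpha is controlled mainly as a protein, so the level of *HIF1A* RNA is not a measure of its activity.

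The promoters of the members on which the results turn are shown first, because the core motif was found in some promoters of both classes. RefSeq promoters (GRCh38.p14) were matched for 31 of the 35 members and not for *SLC2A3*, *SLC16A1*, *BNIP3L* and *NDRG1*. In the 250 bases before the start, ACGTG or GCGTG was found on either strand in 19 of 31 members (61.3%), against 43.2% of all 35116 promoters. The share was 52.2% for glycolysis genes (12 of 23) and 87.5% for hypoxia genes (7 of 8). Repeated promoters of the same gene were dropped for the members only, and the 35116 were not limited to tested genes, so these shares are not strictly alike. ACGTG by itself was counted in 41.9% of the members and 18.5% of all promoters, and GCGTG in 35.5% and 32.2%. The palindrome CACGTG, which holds ACGTG on both strands and is also the core of the E-box bound by MYC, was present in 19.4% of the members (6 of 31) and in 6.34% of all promoters. A match of 5 letters is a description of the sequence and not a bound site.

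Capitals mark ACGTG or GCGTG or their reverse complements, joined where they overlap. *AK4* and *BNIP3* are shown as the hypoxia genes with the lowest p in the guide comparison and *PFKFB4* as a gene that rose with the inhibitor, and each stretch starts 250 bases before the RefSeq start on the gene's strand and stops before the first annotated UTR base of that gene. For *AK4* the stretch is chr1:65147302-65147548 on the plus strand, for *PFKFB4* chr3:48556891-48557053 on the minus strand and for *BNIP3* chr10:131982014-131982173 on the minus strand. GENCODE puts the start of *PFKFB4* further upstream, at 48562015, so its stretch lies inside the annotated gene.
AK4: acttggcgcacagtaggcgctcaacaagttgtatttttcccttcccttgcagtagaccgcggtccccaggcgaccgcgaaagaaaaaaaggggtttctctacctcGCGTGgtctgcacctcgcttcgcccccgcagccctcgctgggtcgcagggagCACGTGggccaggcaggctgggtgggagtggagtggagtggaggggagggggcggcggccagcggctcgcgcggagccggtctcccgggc
PFKFB4: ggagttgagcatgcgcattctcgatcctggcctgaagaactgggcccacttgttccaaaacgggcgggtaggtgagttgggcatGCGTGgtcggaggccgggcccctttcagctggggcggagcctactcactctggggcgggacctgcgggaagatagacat
BNIP3: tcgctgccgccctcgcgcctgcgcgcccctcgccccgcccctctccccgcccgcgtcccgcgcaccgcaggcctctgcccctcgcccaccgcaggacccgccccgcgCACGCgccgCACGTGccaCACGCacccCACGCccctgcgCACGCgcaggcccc

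For the enzyme genes *ALDOC*, *LDHA* and *ENO1*, each match is shown with 10 bases on either side. They were among the enzyme genes that moved most in the comparisons below or were most abundant. *GAPDH*, the most abundant, is not shown. *ALDOC* had 4 matches, at chr17:28577120-28577145, chr17:28576989-28577013, chr17:28576926-28576950 and chr17:28576909-28576933 on the minus strand. *LDHA* had 3, at chr11:18394368-18394393, chr11:18394466-18394491 and chr11:18394480-18394504 on the plus strand, of which the last 2 lie so close that each window holds a piece of the other's match. *ENO1* had 2, at chr1:8878838-8878862 and chr1:8878744-8878768 on the minus strand. These matches lie before the RefSeq start, but GENCODE also lists transcripts that start further upstream. By those, all *ALDOC* and *ENO1* matches and *LDHA* sites 2 and 3 lie within a first exon, and the window of *LDHA* site 1 spans its start.
ALDOC site 1: aagtgcccggCACGTGgtaaagggat
ALDOC site 2: gcctctgaggGCGTGgtcttgcccc
ALDOC site 3: gcatgcaggcCACGCccccggagga
ALDOC site 4: ccggaggagtCACGTagctctgcga
LDHA site 1: actcccagcgCACGTGgagcagtctg
LDHA site 2: gcccgactcaCACGTGggttcccgCA
LDHA site 3: TGggttcccgCACGTccgccggccc
ENO1 site 1: cccccctttcCACGCtactgcagcc
ENO1 site 2: agctgaggggGCGTGccccggaggc
The promoters of *ALDOC*, which rose with the inhibitor, and of *LDHA* and *AK4*, which fell, all held CACGTG. So did those of *ANKRD37*, which fell, and of *GAPDH* and *BNIP3*, which did not pass with the inhibitor.

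Levels per length were read first, to see which members carry most of the RNA. Per kilobase of exon, *GAPDH*, which oxidises glyceraldehyde-3-phosphate, led in DMSO with 1578 ± 42.3 CPM per kb (SD, n = 3). The enolase gene *ENO1* followed with 446 ± 25.2 CPM per kb. *LDHA*, which makes lactate, came next at 245 ± 6.84 CPM per kb. The mutase gene *PGAM1* (243 ± 8.43 CPM per kb) and the pyruvate kinase gene *PKM* (230 ± 7.10 CPM per kb) lay within 3 SDs of *LDHA*. Then came *PGK1*, a kinase that yields ATP (211 ± 12.0 CPM per kb), and *TPI1*, the triose isomerase (186 ± 23.3 CPM per kb). Most hypoxia genes were far less abundant, from 0.474 ± 0.0255 CPM per kb for the hydroxylase gene *EGLN3* to 19.2 ± 0.792 CPM per kb for the mitophagy gene *BNIP3L* and 17.8 ± 1.06 CPM per kb for *HIF1A*. The ratio of 2 genes' levels rests on annotated exon lengths, since the isoforms in use are not known from these counts.

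The summed level of the glycolysis genes was 14560.1 ± 498 CPM in DMSO, 11909 ± 1747 CPM in KSRi, 6739 ± 33.1 CPM in NT, 5997 ± 254 CPM with guide 1 and 6195 ± 397 CPM with guide 2. The KSRi libraries gave 9897, 13048 and 12783 CPM, all below the lowest DMSO library (13998 CPM), and the lowest was KSRi replicate 1. The 5 genes *GAPDH*, *ENO1*, *PKM*, *LDHA* and *PGK1* made up 80.5% of this sum in DMSO, so it says little about the other 20. Its mean log2 CPM, which weights genes equally, was 6.67 ± 0.05 in DMSO and 6.77 ± 0.18 in KSRi, without the fall seen in the sum, and was 6.13 ± 0.03 in NT. The hypoxia genes summed to 412 ± 4.34 CPM in DMSO, 438 ± 9.06 CPM in KSRi, 522 ± 4.65 CPM in NT, 473 ± 5.44 CPM with guide 1 and 489 ± 15.2 CPM with guide 2. DMSO thus had the highest glycolysis sum and the lowest hypoxia sum of the 5 groups. On the log2 scale the hypoxia mean minus the glycolysis mean was −2.08 to −2.03 in DMSO libraries, −2.17 to −1.91 in KSRi libraries and −1.19 and −1.14 in NT libraries. It was −1.30 to −1.13 with the guides, so the distance differed little between DMSO and KSRi and was narrower in all libraries with a guide. In such bulk samples fewer cells with a transcript and less of it per cell cannot be told apart.

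**Figure D1:**
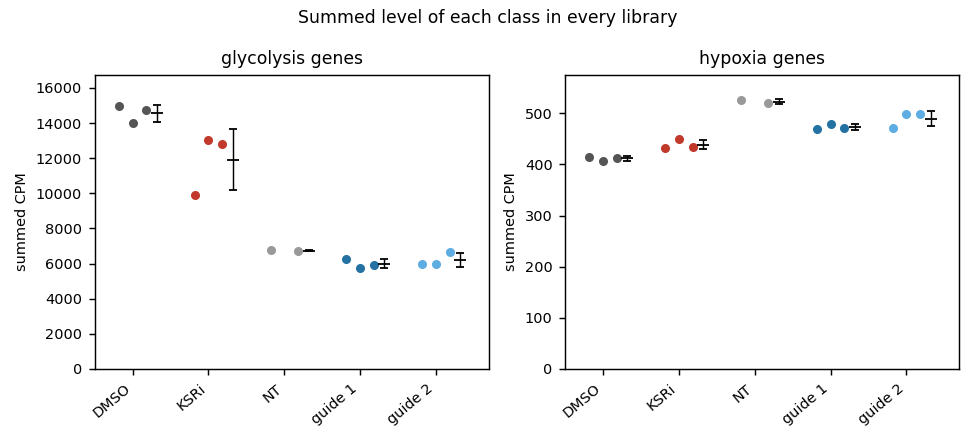
Summed CPM of the 25 glycolysis genes (left) and the 10 hypoxia genes (right) in each library, with points for libraries and bars for the group mean and SD. The glycolysis sum is highest in DMSO (14560.1 CPM) and 5997 and 6195 CPM with the guides, whereas the hypoxia sum is lowest in DMSO (412 CPM) and highest in NT (522 CPM).

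The comparison of KSRi with DMSO asked what the inhibitor did to these genes. Glycolysis genes went both ways: those for aldolase C, the phosphofructokinase regulator PFKFB4 and the glucose carrier GLUT3 rose, and those for lactate dehydrogenase A, hexokinase 2 and enolase 1 fell. Of the 35 members 13 rose and 11 fell at an edgeR adjusted p under 0.05, where 40.7% of all tested genes did so (22.0% higher and 18.7% lower). Among the glycolysis genes 9 of 25 rose and 9 fell (median log2 change −0.17), and among the hypoxia genes 4 of 10 rose and 2 fell (median 0.03). The median over all tested genes was 0.02. In 10 members every KSRi library was above every DMSO library and in 11 below, where 25.0% and 21.9% of all tested genes were so placed. The 3 fibroblast markers, of which *COL1A2* and *DCN* were at or near 0, summed to 5.95 to 6.58 CPM in DMSO and 8.69 to 13.4 CPM in KSRi, and their part in these results was not tested.

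Among the carriers, *SLC2A3* (GLUT3) rose and *SLC16A1* (MCT1), a lactate carrier, fell. *SLC2A3* (ENSG00000059804) measured 8.63, 8.66 and 7.06 CPM in DMSO and 14.1, 19.2 and 21.3 CPM in KSRi. All KSRi libraries were above all DMSO libraries, a 2.24-fold rise (edgeR adjusted p = 5.85e-05, log2 change 1.17 ± 0.17 SE). *SLC16A3* (MCT4), which exports lactate, rose from 9.58 ± 0.669 to 14.2 ± 2.91 CPM (1.48-fold, edgeR adjusted p = 0.00199). *SLC16A1* fell from 325 ± 7.44 to 232 ± 23.1 CPM (1.40-fold, edgeR adjusted p = 3.09e-05), and its groups did not overlap. *SLC2A1* (GLUT1), a glucose carrier of most cell types, measured 92.2 ± 7.46 CPM in DMSO and 77.9 ± 11.2 CPM in KSRi and did not pass (edgeR adjusted p = 0.1). It passed without KSRi replicate 2 (log2 change −0.34, edgeR adjusted p = 0.0429) and without a low-count filter (−0.26, adjusted p = 0.0171).

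At the first steps of the pathway the isozymes parted. *HK2* (ENSG00000159399; chromosome 2, 74833981 to 74893359), the inducible hexokinase, measured 137, 132 and 136 CPM in DMSO and 80.6, 83.9 and 99.6 CPM in KSRi. The groups did not overlap and the fall was 1.54-fold (edgeR adjusted p = 7.23e-06, log2 change −0.62 ± 0.08 SE). *HK1*, the widely expressed hexokinase, had a log2 change of 0.29 (SE 0.09, edgeR adjusted p = 0.0128), with overlapping groups, and lost its call without DMSO replicate 2 (0.23, adjusted p = 0.0754), KSRi replicate 2 (0.26, adjusted p = 0.0546) or KSRi replicate 3 (0.21, adjusted p = 0.0635). Of the 3 phosphofructokinase genes, *PFKL* rose from 111 ± 2.79 to 157 ± 28.3 CPM (1.41-fold, edgeR adjusted p = 0.00119). *PFKM* (ENSG00000152556; chromosome 12, 48105139 to 48146404) was scarce, at 4.65, 3.27 and 4.79 CPM in DMSO and 5.87, 6.93 and 8.33 CPM in KSRi, and rose 1.64-fold (edgeR adjusted p = 0.000896, log2 change 0.71 ± 0.14 SE). The most abundant of them, *PFKP*, measured 242 ± 12.9 and 216 ± 42.9 CPM and did not pass, except without KSRi replicate 3 (log2 change −0.31, edgeR adjusted p = 0.0408). *GPI*, the isomerase between these steps, measured 385 ± 34.2 and 361 ± 67.6 CPM and did not pass (edgeR adjusted p = 0.682).

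The bifunctional enzymes PFKFB3 and PFKFB4 set the level of fructose-2,6-bisphosphate, the activator of phosphofructokinase. *PFKFB4* (ENSG00000114268; chromosome 3, 48517684 to 48562015) measured 14.7, 14.8 and 15.6 CPM in DMSO and 36.6, 44.3 and 44.6 CPM in KSRi. Every KSRi library was well above every DMSO library, and the rise was 2.78-fold (edgeR adjusted p = 3.54e-09, log2 change 1.48 ± 0.09 SE). *PFKFB3* had a log2 change of 0.19 (SE 0.09, edgeR adjusted p = 0.106) and passed without KSRi replicate 1 (0.30, adjusted p = 0.00156).

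The largest rise of any member was at the aldolase step. *ALDOC* (ENSG00000109107; chromosome 17, 28573115 to 28577264), an aldolase best known from brain, measured 9.72, 10.3 and 9.45 CPM in DMSO and 64.3, 84.6 and 93.9 CPM in KSRi. The lowest KSRi library was far above the highest DMSO library, and the rise was 8.22-fold (edgeR adjusted p = 1.98e-11, log2 change 3.04 ± 0.13 SE). *ALDOA*, the main aldolase of most tissues, was listed with 10 to 56 counts per library, at 1.34, 1.06 and 1.45 CPM in DMSO and 0.873, 0.807 and 0.537 CPM in KSRi. It had a log2 change of −0.75 ± 0.21 (SE, edgeR adjusted p = 0.0106), and the call was lost without DMSO replicate 3 (−0.63, adjusted p = 0.0629). In the annotation used here, 42.3% of its exon length is shared on the same strand with another protein-coding gene, ENSG00000285043, which had 1186 counts over all libraries. How reads in shared exons were counted is not given, so the level of *ALDOA* is uncertain, and so is that of *LDHB*, for which the shared part was 33.4%.

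In the lower part of the pathway, the genes that passed fell, with the exception of *ENO2*. *ENO1* measured 2497, 2235 and 2333 CPM in DMSO and 1391, 1757 and 1833 CPM in KSRi, with no overlap (edgeR adjusted p = 0.000341, log2 change −0.50 ± 0.09 SE). *PGAM1* fell from 624 ± 21.6 to 442 ± 43.4 CPM (1.41-fold, edgeR adjusted p = 3.87e-05), and *PGK1* fell from 1164 ± 66.1 to 932 ± 102 CPM (1.25-fold, edgeR adjusted p = 0.00933). *ENO2*, the neuronal enolase, rose from 124 ± 4.36 to 170 ± 38.8 CPM (1.37-fold, edgeR adjusted p = 0.00643), although KSRi replicate 1 (127 CPM) lay within the DMSO range. The log2 changes of *TPI1* (−0.31, adjusted p = 0.0909), *GAPDH* (−0.26, adjusted p = 0.118) and *PKM* (−0.09, adjusted p = 0.561) did not pass by edgeR. *TPI1* passed without KSRi replicate 3 (−0.46, adjusted p = 0.0183) and *GAPDH* without KSRi replicate 2 (−0.40, adjusted p = 0.0245). Without a low-count filter both passed (*TPI1* −0.34, adjusted p = 0.000263, and *GAPDH* −0.28, adjusted p = 0.000839). *GAPDH*, *ENO1*, *PGK1*, *PGAM1*, *TPI1* and *LDHA* have processed pseudogenes, and how reads shared with them were counted is not given.

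The members *LDHA*, *LDHB* and *PDK1*, which act on the fate of pyruvate, fell. *LDHA* (ENSG00000134333; chromosome 11, 18394388 to 18408425) measured 1572, 1494 and 1504 CPM in DMSO and 857, 949 and 985 CPM in KSRi. The groups were far apart, and the fall was 1.64-fold (edgeR adjusted p = 6.73e-07, log2 change −0.71 ± 0.07 SE). *LDHB*, which favours the step back to pyruvate, had 28 to 109 counts per library, at 2.97, 3.11 and 2.82 CPM in DMSO and 1.91, 1.61 and 1.50 CPM in KSRi (edgeR adjusted p = 0.000763, log2 change −0.81 ± 0.16 SE). *PDK1*, the kinase that shuts pyruvate out of the mitochondrial dehydrogenase, fell from 46.9 ± 0.373 to 39.8 ± 2.47 CPM (1.18-fold, edgeR adjusted p = 0.01). *PGM1*, which links glycolysis to glycogen, had a log2 change of 0.26 (SE 0.08, edgeR adjusted p = 0.0215). Its groups overlapped and its call was lost without DMSO replicate 2 (0.23, adjusted p = 0.0834), DMSO replicate 3 (0.27, adjusted p = 0.0511), KSRi replicate 2 (0.26, adjusted p = 0.0522) or KSRi replicate 3 (0.15, adjusted p = 0.12).

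**Figure D2:**
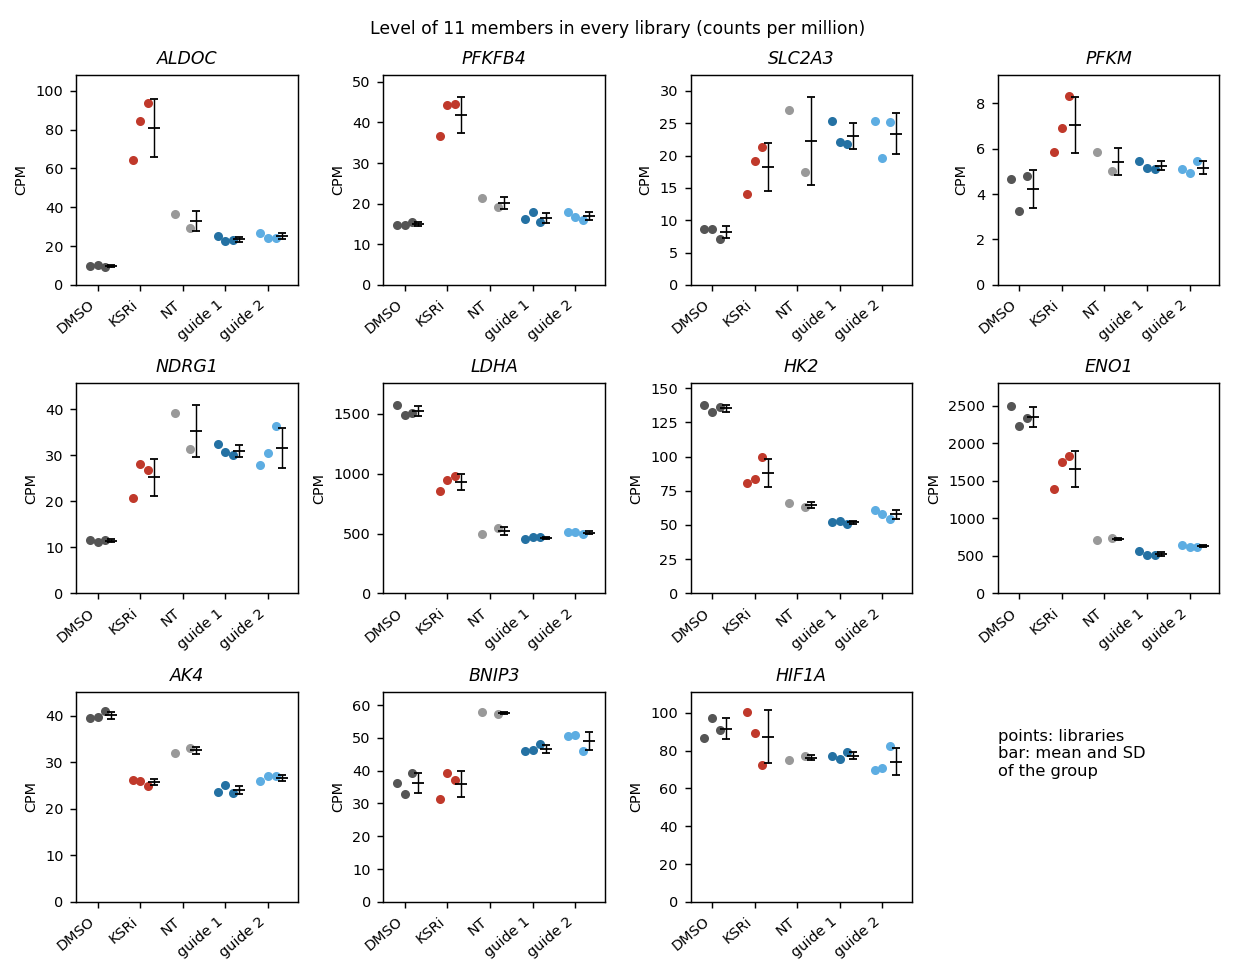
CPM of 11 members in every library (points), with the group mean and SD (bars), each panel on its own linear axis from 0. ALDOC, PFKFB4, SLC2A3, PFKM and NDRG1 are higher in every KSRi library than in every DMSO library, and LDHA, HK2, ENO1 and AK4 are lower.

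Among the genes of oxygen sensing, *HIF1A* (ENSG00000100644; chromosome 14, 61695513 to 61748259) measured 86.6, 97.5 and 90.8 CPM in DMSO and 100.2, 89.3 and 72.5 CPM in KSRi. The KSRi libraries lay on both sides of the DMSO libraries, and the log2 change was −0.07 (SE 0.10, 95% interval −0.27 to 0.14, edgeR adjusted p = 0.612). *EGLN3*, a hydroxylase that HIF itself induces, rose from 3.49 ± 0.188 to 5.05 ± 0.134 CPM (1.44-fold, edgeR adjusted p = 0.000734). *EGLN1*, the main hydroxylase acting on HIF-1 alpha, measured 16.3 ± 0.940 and 15.2 ± 1.20 CPM and did not pass (edgeR adjusted p = 0.373).

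The hypoxia-inducible members also moved both ways. *NDRG1* (ENSG00000104419), a stress and differentiation gene, measured 11.6, 11.1 and 11.6 CPM in DMSO and 20.7, 28.2 and 26.8 CPM in KSRi. All KSRi libraries were higher, and the rise was 2.20-fold (edgeR adjusted p = 2.6e-06, log2 change 1.14 ± 0.13 SE). *P4HA1*, a collagen prolyl hydroxylase, rose from 47.1 ± 2.39 to 58.1 ± 3.36 CPM (1.23-fold, edgeR adjusted p = 0.00315). *BNIP3L*, a mitophagy receptor, rose from 82.7 ± 3.41 to 100.3 ± 6.59 CPM (1.21-fold, edgeR adjusted p = 0.00317). *AK4* (ENSG00000162433; chromosome 1, 65147549 to 65232145), a mitochondrial adenylate kinase, went the other way, from 39.6, 39.8 and 40.9 CPM in DMSO to 26.1, 26.0 and 24.9 CPM in KSRi. Its groups did not overlap, and its level in DMSO was 1.56 times that in KSRi (edgeR adjusted p = 1.01e-06, log2 change −0.64 ± 0.06 SE). *ANKRD37*, an ankyrin repeat gene, fell from 2.84 ± 0.435 to 1.90 ± 0.110 CPM (1.48-fold, edgeR adjusted p = 0.0209), but its call was lost without DMSO replicate 1 (log2 change −0.46, adjusted p = 0.0804). On the opposite strand 35.2% of its exon length lies over *UFSP2*, and whether reads were counted by strand is not stated. The log2 changes of *BNIP3*, the paralog of *BNIP3L* (−0.01, SE 0.09, adjusted p = 0.942), and of the histone demethylase gene *KDM3A* (0.07, SE 0.07, adjusted p = 0.442) did not pass by edgeR. Leaving out KSRi replicate 1, the library that stood apart by chi-square, gave 14 members higher and 11 lower. The median log2 change of the members moved from −0.09 to 0.04. Leaving out KSRi replicate 2 or 3 instead gave 11 higher and 13 lower each time, with medians of −0.08 and −0.17.

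Neighbouring genes of metabolism and of the HIF pathway were read in the same fit. Their lists were drawn up beside the members with earlier results of these data known, so the counts are a description. Of 18 tested further HIF-inducible genes (24 listed) 9 rose and 0 fell, where 22.0% of all tested genes rose and 18.7% fell, and the median was 0.32 on the log2 scale. Of those that rose, *ANGPTL4* (0.083 CPM in DMSO and 0.283 CPM in KSRi) and *MIR210HG* (0.444 and 1.22 CPM) were near the floor. The angiogenic factor gene *VEGFA* measured 21.0 to 21.5 CPM in DMSO and 80.7 to 83.5 CPM in KSRi (3.87-fold higher, edgeR adjusted p = 2.55e-12). *BHLHE40*, a transcriptional repressor gene, rose 3.49-fold and *VLDLR*, a lipoprotein receptor gene, 2.82-fold, both with an edgeR adjusted p of 3.82e-10. Among 12 tested regulators of the HIF pathway (14 listed) 2 rose and 1 fell: *CITED2*, a competitor of HIF for its coactivator, rose 1.27-fold, *RBX1* rose 1.18-fold, and *CUL2*, a subunit of the ligase that removes HIF, fell 1.28-fold.

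Other isozymes and branches gave the following counts, to be read against the 40.7% of all tested genes that changed (22.0% higher and 18.7% lower). Of 15 tested further isozymes and carriers of glycolysis (20 listed) 3 rose and 2 fell. The glucose carrier gene *SLC2A6* rose 4.41-fold, from 18.5 to 81.5 CPM (edgeR adjusted p = 8.78e-10), *PFKFB2* rose 1.48-fold and the phosphatase gene *PGAM5* fell 1.40-fold. Of 12 tested genes of pyruvate entry into mitochondria (13 listed) 6 rose and 2 fell, with *PC*, the pyruvate carboxylase, 1.57-fold higher, *PDP2* 1.44-fold higher and *PDK3* 1.41-fold higher. Of 7 tested pentose phosphate genes 3 rose and 2 fell. *PGD*, which encodes 6-phosphogluconate dehydrogenase, was 2.00-fold higher, and *RPE*, of a later epimerase step, was 1.37-fold lower. Of 7 tested glycogen genes (8 listed) 2 rose and 1 fell, and those that rose were *PYGL* (1.93-fold higher) and *GBE1* (1.67-fold higher). Of 10 tested genes of the NADH shuttles 1 rose and 3 fell, with *GOT1* 1.97-fold higher, *SLC25A12* 1.35-fold lower and *GOT2* 1.21-fold lower. All of these passed the edgeR test, and every list held members that did not.

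The 2 control groups, NT and DMSO, were set side by side because they fix the starting levels of the guide and the inhibitor comparisons. They differ in the guide vector, in the solvent and in any difference of culture that the labels do not give, and these cannot be told apart. Most glycolytic enzymes were far lower in NT and most hypoxia genes higher. Of the 35 members 11 were higher and 18 lower in NT, where 65.8% of all tested genes differed (34.6% higher and 31.2% lower). With upper-quartile scaling the split was 14 higher and 15 lower, and the median of all tested genes moved from 0.04 to 0.26, so values near 0 depend on the scaling. In 13 members both NT libraries were above every DMSO library and in 18 below, where 41.5% and 37.8% of all tested genes were so placed. The 4 B cell markers, of which *MS4A1* and *PAX5* were at or near 0, summed to 21.8 to 23.1 CPM in DMSO and 46.9 to 68.0 CPM in NT, and their part in these differences was not tested. Among the glycolysis genes 16 of 25 were lower and 5 higher (median log2 difference −0.99), and among the hypoxia genes 6 of 10 were higher and 2 lower (median 0.28).

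The widest falls lay along the second part of glycolysis. *ENO1* measured 717 and 738 CPM in NT, 3.24-fold below DMSO (edgeR adjusted p = 6.63e-10, log2 difference −1.69 ± 0.11 SE). *PGAM1* was 3.05-fold lower, *LDHA* 2.92-fold, *PKM* 2.81-fold and *PGK1* 2.73-fold, each with an edgeR adjusted p of 3.3e-08 or less. *SLC16A1* (2.48-fold), *SLC2A1* (2.43-fold), *GPI* (2.42-fold), *PFKP* (2.32-fold), *TPI1* (2.21-fold) and *HK2* (2.10-fold) were lower too, and *GAPDH* by less (1.66-fold). Higher in NT among the glycolysis genes were *ALDOC* (3.35-fold), *SLC2A3* (2.74-fold), *PDK1* (log2 difference 0.51), *SLC16A3* (1.40-fold) and *PFKFB4* (1.34-fold). Among the hypoxia genes *NDRG1* was 3.07-fold higher, *BNIP3L* 1.76-fold, *BNIP3* 1.59-fold and *EGLN3* 1.46-fold.

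Not all members shared these directions. *AK4*, at 32.1 and 33.1 CPM in NT, was 1.23-fold lower than in DMSO (edgeR adjusted p = 0.00148, log2 difference −0.30 ± 0.07 SE), and *HIF1A*, at 75.3 and 77.2 CPM, was 1.20-fold lower (edgeR adjusted p = 0.0405, log2 difference −0.26 ± 0.11 SE). With upper-quartile scaling neither passed (*AK4* −0.08, adjusted p = 0.326, and *HIF1A* −0.05, adjusted p = 0.725), nor did *HK1* (−0.08, adjusted p = 0.47). The call of *HIF1A* was also lost without DMSO replicate 2 (adjusted p = 0.122), DMSO replicate 3 (adjusted p = 0.0675), NT replicate 1 (adjusted p = 0.154) or NT replicate 2 (adjusted p = 0.109). *KDM3A* (log2 difference 0.19, adjusted p = 0.0315) lost its call without either NT library (adjusted p = 0.105 and 0.117) or DMSO replicate 2 (adjusted p = 0.133). *HK1* (−0.29, adjusted p = 0.015) lost it without either NT library (adjusted p = 0.0754 and 0.0613) or DMSO replicate 3 (adjusted p = 0.0529), and with a filter of 5 CPM in 3 libraries (−0.15, adjusted p = 0.14). *ALDOA* (−0.99, adjusted p = 0.00188) lost it without NT replicate 2 (−0.69, adjusted p = 0.0668). KSRi and NT were compared with the same DMSO libraries, so their differences are not independent. *HK1* and *PGM1* were higher in KSRi and lower in NT, and *PDK1* was lower in KSRi and higher in NT.

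**Figure D3:**
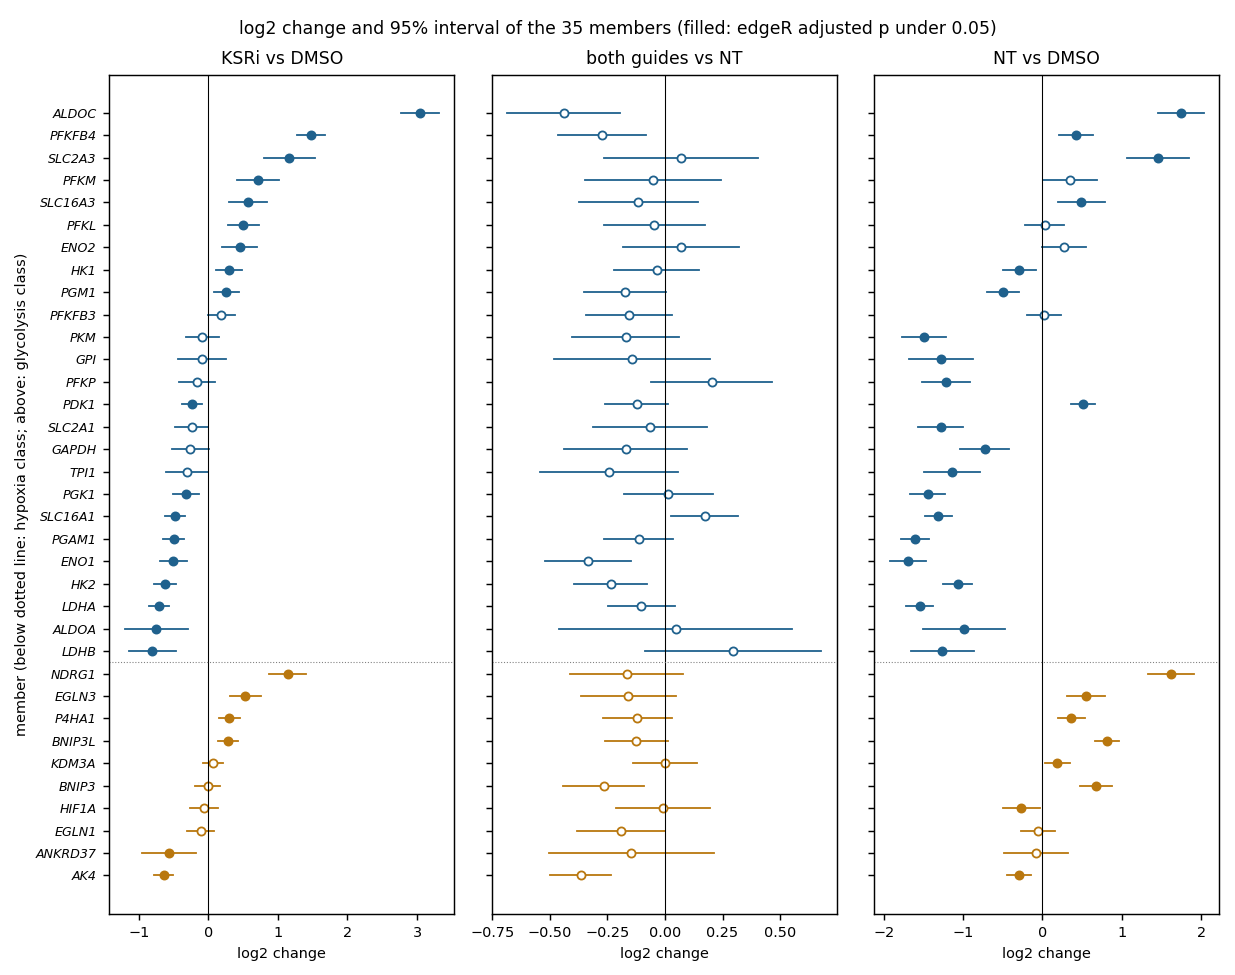
Log2 change (points) with its 95% interval (lines) of each member in KSRi against DMSO, both guides against NT and NT against DMSO, with filled points for an edgeR adjusted p under 0.05 and each panel on its own axis. Filled points lie on both sides of 0 in the left and right panels (13 higher and 11 lower, 11 higher and 18 lower), and the middle panel has none.

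The guides were set against NT to read the members in cells with little *KSR2* transcript. By edgeR 0 of 35 passed for both guides together, where 0.0158% of all tested genes did so. At an unadjusted p under 0.05 there were 8 members, of 788 among all tested genes. DESeq2 called 1 member (*AK4*, log2 change −0.38, DESeq2 adjusted p = 4.7e-05). Without a low-count filter edgeR called 2 (*ALDOC*, adjusted p = 0.00667, and *ENO1*, adjusted p = 0.0129), and limma-voom called 0. The log2 changes were below 0 for 28 members and above 0 for 7 (median −0.12, against −0.00 over all tested genes). Of all 18963 tested genes, 9763 were below 0. All 10 hypoxia genes were below 0 (median −0.15), but *HIF1A* (−0.009) and *KDM3A* (−0.0003) hardly differed from 0. With guide 1 alone 8 of these 10 were below 0 and 2 above, and with guide 2 alone all 10 were below. All these changes are set against the same 2 NT libraries, so the members' directions are not independent of each other.

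The 5 members with the lowest p were lower in every guide library than in either NT library. *AK4* measured 32.1 and 33.1 CPM in NT, 23.5, 25.0 and 23.4 CPM with guide 1 and 26.0, 27.0 and 27.0 CPM with guide 2 (log2 change −0.37 ± 0.06 SE, 95% interval −0.50 to −0.23, edgeR adjusted p = 0.0899). *ALDOC* measured 36.7 and 29.2 CPM in NT, 25.1, 22.4 and 23.0 CPM with guide 1 and 26.9, 24.2 and 24.0 CPM with guide 2 (edgeR adjusted p = 0.964, log2 change −0.44 ± 0.12 SE). *ENO1* measured 717 and 738 CPM in NT, 563, 513 and 509 CPM with guide 1 and 650, 621 and 620.5 CPM with guide 2 (edgeR adjusted p = 0.964, log2 change −0.33 ± 0.09 SE). The NT libraries of *AK4* and *ENO1* lay close together, whereas those of *ALDOC* differed by more than its guide libraries did. *BNIP3* measured 57.9 and 57.3 CPM in NT, 45.9, 46.2 and 48.0 CPM with guide 1 and 50.7, 50.9 and 46.0 CPM with guide 2 (edgeR adjusted p = 0.989, log2 change −0.27 ± 0.08 SE). *HK2* measured 66.0 and 63.2 CPM in NT, 52.1, 53.2 and 50.9 CPM with guide 1 and 61.3, 57.8 and 54.5 CPM with guide 2 (edgeR adjusted p = 0.989, log2 change −0.24 ± 0.08 SE). For *HK2* the guide 2 libraries lay between those of guide 1 and NT, with 1 of them within 2 CPM of the lower NT library.

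Groups that do not overlap were counted for all members. In 10 members all 6 guide libraries were below both NT libraries, and in 1 (*SLC16A1*) they were above, where 5.15% and 4.41% of all tested genes were so placed. Beside those named, the 10 were *TPI1*, *PGAM1*, *PFKFB3*, *PFKFB4* and *PGM1*. *SLC16A1* measured 134 and 128 CPM in NT, 144 to 148 CPM with guide 1 and 147 to 153 CPM with guide 2 (edgeR adjusted p = 0.989, log2 change 0.17 ± 0.07 SE). *HIF1A* measured 75.3 and 77.2 CPM in NT, 77.0, 75.8 and 79.4 CPM with guide 1 and 69.6, 70.7 and 82.3 CPM with guide 2, with a log2 change of −0.01 (SE 0.10, 95% interval −0.21 to 0.20). The guide groups overlapped NT and each other for this gene.

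Each guide alone gave 0 called members, where 0.00527% of tested genes passed for guide 1 and 0.0105% for guide 2. At an unadjusted p under 0.05 there were 14 members for guide 1 (880 of all tested genes) and 5 for guide 2 (683). DESeq2 called *ENO1* (DESeq2 adjusted p = 0.0419) and *AK4* (DESeq2 adjusted p = 2.29e-06) for guide 1 and 0 members for guide 2. The log2 changes of *AK4* were −0.44 (SE 0.07) with guide 1 and −0.29 (SE 0.07) with guide 2, those of *ENO1* −0.46 (SE 0.10) and −0.21 (SE 0.10), and those of *ALDOC* −0.48 (SE 0.13) and −0.40 (SE 0.13). The guides were then compared directly, and 0 members differed by edgeR (0.00527% of tested genes did). *ENO1* (0.25, SE 0.09) and *AK4* (0.15, SE 0.06) were higher with guide 2 at unadjusted p = 0.0123 and 0.0309, with an edgeR adjusted p of 1 for both. All 3 guide 2 libraries were above all 3 guide 1 libraries in 9 members and below them in 1, where 4.99% and 5.18% of all tested genes were so placed. DESeq2 and edgeR without a low-count filter called 0 members here. In the lists of neighbouring genes 0 genes passed for both guides, among them 0 of the 18 further HIF-inducible genes (median log2 change −0.08).

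Whether the inhibitor and the guides differed in their effect was tested as the KSRi change minus the guide change, which share no control library. Of the 35 members 17 differed, where 28.6% of all tested genes did so (16.6% higher and 12.1% lower). The signed log2 change with the inhibitor was higher than that with the guides in 11 and lower in 6. On the higher side the widest differences were in *ALDOC* (3.48, SE 0.17, edgeR adjusted p = 2.72e-10), *PFKFB4* (1.75, SE 0.13, edgeR adjusted p = 5.33e-08), *NDRG1* (1.31, SE 0.17, edgeR adjusted p = 3.43e-05) and *SLC2A3* (1.10, SE 0.23, edgeR adjusted p = 0.0024). These 4 rose with the inhibitor, and with the guides their log2 changes were −0.44, −0.27, −0.17 and 0.07. *PFKM* (0.77), *EGLN3* (0.69), *SLC16A3* (0.68), *PFKL* (0.55), *PGM1* (0.43), *P4HA1* (0.42) and *BNIP3L* (0.40) made up the others on that side. On the lower side were *LDHB* (−1.10), *SLC16A1* (−0.66), *LDHA* (−0.61, SE 0.10, edgeR adjusted p = 0.000269), *HK2* (−0.39), *PGAM1* (−0.38) and *AK4* (−0.28, adjusted p = 0.032). These 6 fell with the inhibitor, and with the guides their log2 changes were 0.30, 0.17, −0.10, −0.24, −0.11 and −0.37. The value of *LDHB* rests on 28 to 109 counts per library, and its level is uncertain.

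This count rested in part on 1 control library. Without NT replicate 1, 11 members differed, and *PFKL*, *PFKM*, *PGAM1*, *PGM1*, *P4HA1* and *AK4* no longer passed (adjusted p = 0.0586 to 0.131). Without NT replicate 2, *HK2* (adjusted p = 0.0695) and *AK4* (adjusted p = 0.074) no longer passed, and *PGK1* did. *AK4* also lost its call without DMSO replicate 2 (adjusted p = 0.0556), DMSO replicate 3 (adjusted p = 0.0758), KSRi replicate 2 (adjusted p = 0.0545), KSRi replicate 3 (adjusted p = 0.0558) or guide 2 replicate 2 (adjusted p = 0.0504). Without KSRi replicate 1, *HK1*, *ENO2*, *PFKFB3* and *BNIP3* passed as well, which gave 21. For *ENO1* the difference was −0.17 (SE 0.13, 95% interval −0.44 to 0.10) and did not pass (edgeR adjusted p = 0.344), and for *HIF1A* it was −0.06 (SE 0.14, 95% interval −0.35 to 0.23).

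The balance within gene pairs was read in every group as the log2 ratio of CPM per kilobase. No test was run on these ratios, which are given as a description. *HK2* exceeded *HK1* by 0.90 ± 0.09 in DMSO (SD, n = 3), and the ratio was −0.02 ± 0.13 in KSRi, 0.12 ± 0.06 in NT and −0.07 ± 0.03 and −0.08 ± 0.10 with guides 1 and 2. The hexokinases were thus near even in all groups but DMSO. The ratio of *SLC2A3* to *SLC2A1* was −3.89 ± 0.28 in DMSO, −2.49 ± 0.18 in KSRi, −1.19 ± 0.49 in NT, and −1.07 ± 0.06 and −0.98 ± 0.16 with the guides. That of *ENO2* to *ENO1* was −3.95 ± 0.11 in DMSO, −3.01 ± 0.14 in KSRi, −1.98 ± 0.04 in NT, and −1.45 ± 0.05 and −1.70 ± 0.05 with the guides. In both pairs DMSO was the most one-sided group, KSRi came next and the guide-bearing groups were closest to even.

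The pairs *SLC16A3* with *SLC16A1* and *PFKP* with *PFKL* had that order too, as had *PFKM* with *PFKL* by its means, with small distances. The pairs *PFKFB4* with *PFKFB3* and *BNIP3L* with *BNIP3* did not. The ratio of *SLC16A3* to *SLC16A1* was −5.85 ± 0.07 in DMSO, −4.81 ± 0.23 in KSRi, −4.05 ± 0.03 in NT, and −4.31 ± 0.03 and −4.37 ± 0.14 with the guides. *PFKP* exceeded *PFKL* by 2.01 ± 0.09 in DMSO, 1.34 ± 0.07 in KSRi and 0.77 ± 0.02 in NT, and by 1.02 ± 0.08 and 1.00 ± 0.21 with the guides. The ratio of *PFKFB4* to *PFKFB3* was −1.90 ± 0.09 in DMSO and −0.60 ± 0.09 in KSRi. In NT it was −1.49 ± 0.14 and with the guides −1.61 ± 0.07 and −1.60 ± 0.09, so every KSRi library was above every library of the other 4 groups. *BNIP3L* exceeded *BNIP3* by 1.50 ± 0.11 in DMSO and by 1.64 to 1.79 on average in the other groups. The ratio of *PFKM* to *PFKL* was −4.44 ± 0.27 in DMSO and −4.19 to −4.09 on average elsewhere. *ALDOC* over *ALDOA* and *LDHB* over *LDHA* are left out because the counts of *ALDOA* and *LDHB* are uncertain.

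**Figure D4:**
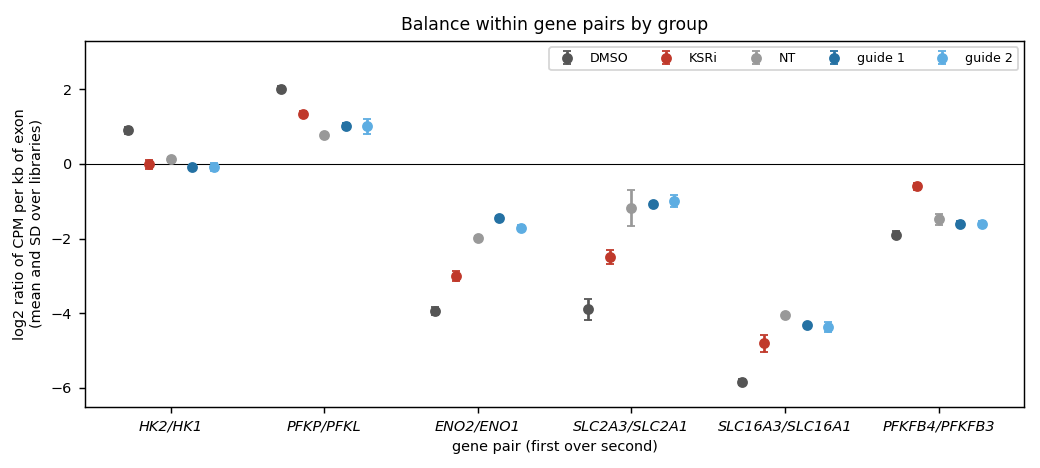
Log2 ratio of CPM per kilobase of exon within 6 gene pairs, as the mean and SD over the libraries of each group, with the line at 0 for equal levels. HK2 over HK1 falls from 0.90 in DMSO to near 0 elsewhere, and PFKFB4 over PFKFB3 is closest to even in KSRi (−0.60).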

How the data were processed

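Polyadenylated RNA of 14 Jurkat libraries was sequenced, and the authors deposited whole-number read counts per Ensembl gene, neither scaled nor filtered as far as the values show. Alignment to GRCh38 is listed per the submitters' processing notes, which name STAR (2.7.11b) and also DESeq2 (1.42.1). Which program counted the reads, whether by strand, and on which annotation are not given in the sources at hand. Samples were grouped by their labels, and 0 columns belonged to no sample. Counts were fitted with edgeR 4.0.16 (R 4.3.3; TMM scaling, filterByExpr, 5 group means over all 14 libraries, quasi-likelihood F test, two-sided) and p-values were adjusted by Benjamini-Hochberg over 18963 genes, with a threshold of 0.05. The common biological coefficient of variation was 8.60%. CPM use TMM-scaled library sizes, and log2 CPM a prior count of 2. The inhibitor and guide effects were compared by a contrast of both differences. Levels per kilobase use merged exon lengths of GENCODE (GRCh38), which also gave gene positions. Each SE was taken as the size of the log2 change over the square root of its F value, and the 95% intervals were built from these SEs. The scripts were tested on simulated data.

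Values in every library are given for *HIF1A*, for up to 5 members with the largest rise and up to 5 with the largest fall among those called with the inhibitor, and for the 5 with the lowest p in the guide comparison. From each further list up to 3 genes with the lowest p were named, and some genes of these lists are not reported here. The members, lists and pairs were chosen with earlier results of these data known. Alternatives were other scaling factors, other filters, DESeq2 1.42.0, limma-voom 3.58.1, a replicate block, only the groups compared, an adjusted p of 0.01 and leaving out each library.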

Additional observations from a re-analysis of the deposited data

How the results depend on the processing

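With KSRi against DMSO 24 members passed, and 22 to 25 did when 1 library was left out. Over 15 settings all 24 kept their direction wherever they were tested, and 19 kept their call in every setting that tested them. NT against DMSO gave 29, with 25 to 29 without 1 library, and over 14 settings 24 kept their call wherever they were tested. The difference between inhibitor and guide effect gave 17, with 11 to 21 without 1 library (11 without NT replicate 1 and 21 without KSRi replicate 1). Over 22 settings 10 of the 17 kept their call wherever they were tested. The guide comparisons gave 0 under every left-out library. Without a low-count filter guide 1 gave 2 members and both guides 2, with 35 and 41 calls among all genes against 1 and 3. DESeq2 gave 2 for guide 1 and 1 for both guides, with 8 and 7 calls among all genes. For guide 2 these settings called 35 and 5 of all genes against 2, and without a filter guide 2 against guide 1 gave 13 against 1, with 0 members each time. With a replicate block the counts were 24 for KSRi, 0 for each guide comparison, 28 for NT and 16 for the difference of effects. Deviations of same-numbered libraries from their group means had an r of −0.10 to 0.11. With so few libraries per group these values cannot show whether same-numbered libraries were handled together, and the labels do not say. A filter of 5 CPM in 3 libraries left 32 members and kept 21 of the 24 calls with KSRi. *ALDOA*, *LDHB* and *ANKRD37*, which it removed, were not tested there, so *LDHB* counts above among those that kept their call. Leaving out *ALDOA* and *LDHB*, chosen after seeing the data, gave 22, 27 and 16. With 2 NT libraries, leaving 1 out assumes that the other varies as the remaining groups do. *ALDOA* and *LDHB* had the lowest counts of the members, and how reads in their shared exons were counted is not given.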

Other observations

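Most neighbouring genes of carbon metabolism that passed were lower in NT than in DMSO, a comparison in which 65.8% of all tested genes differed (34.6% higher and 31.2% lower) and in which vector, solvent and culture cannot be told apart. All 7 pentose phosphate genes were lower (median log2 difference −0.82) and 0 were higher. *PGD*, the gene of 6-phosphogluconate dehydrogenase in that pathway, averaged 413 CPM in DMSO, 827 CPM in KSRi and 219.9 CPM in NT. It was thus lower in NT and higher in KSRi than in the shared DMSO libraries. Of 15 further isozymes and carriers of glycolysis 9 were lower and 5 higher, of 7 glycogen genes 5 were lower and 2 higher, and of 10 shuttle genes 8 were lower and 1 higher. Of 12 genes of pyruvate entry 8 were lower and 0 higher, among them *DLAT*, a subunit of pyruvate dehydrogenase, at 186.9 CPM in DMSO and 72.0 CPM in NT. Of 18 further HIF-inducible genes 9 were higher and 3 lower (median 0.28). Of 12 regulators of the HIF pathway 1 was higher and 7 lower (median −0.40). In that list *EPAS1* averaged 3.29 CPM in DMSO, 2.78 CPM in KSRi and 12.9 CPM in NT. *VEGFA* averaged 21.2 CPM in DMSO, 82.1 CPM in KSRi and 73.2 CPM in NT, and 67.3 CPM and 65.6 CPM with the guides. *PGD*, *DLAT*, *VEGFA* and *EPAS1* were named here after their values were seen, and the lists were chosen with earlier results of these data known.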
